A study of Mus musculus with 8 samples.

Results

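A single application of the carcinogen DMBA to mouse back skin was compared with acetone alone, in epidermis taken on day 10 after DMBA. The comparison used the 2 libraries titled DMBA and the 2 titled Control DMBA, which were chosen by title and make up 4 of the 8 libraries of the series. The mice were FVB, wild type (WT) and 7 to 8 weeks old. DMBA (7,12-dimethylbenz[a]anthracene) was given once, as 100 µl at 1 mg/ml in acetone, and the acetone group carried no carcinogen. The day on which the acetone group was harvested is not given in the labels. The other 4 libraries, used for the shared estimate of spread and for a closing comparison, came from mice that had TPA (a phorbol ester, 0.1 mg/ml) 2 times per week after DMBA, with harvest on day 52, and from an acetone group of their own. Whole epidermis was loosened with Dispase II, separated from the dermis and sequenced after removal of ribosomal RNA. The labels do not say whether the 2 libraries of a group came from separate mice, and all p-values here speak for the spread among these libraries alone, part or all of which may be technical.

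DMBA is a polycyclic aromatic hydrocarbon that binds the aryl hydrocarbon receptor and is turned by cytochrome P450 enzymes into metabolites that form DNA adducts. In mouse skin it is the classical initiator of tumours, which then need a promoter such as TPA to grow out. Interferons act through the JAK kinases on transcription factors such as STAT2 and IRF9. Different complexes of such factors bind interferon-stimulated response elements or gamma-activated sites. They switch on antiviral proteins, guanylate-binding proteins (GBPs), immunity-related GTPases (IRGs) and the MHC class I pathway.

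Between 30463506 and 36002886 counts per library were assigned to genes in the 4 libraries, and 19450 of 55487 genes had enough counts over the series to be tested. Markers of the labelled tissue were abundant: the 16 basal keratinocyte genes summed to 29048 to 31297 CPM (counts scaled to library size), and the 30 suprabasal genes to 33065 to 43592 CPM. Library Control DMBA 1 stood apart in connective tissue genes, with 2497 summed CPM over 24 fibroblast genes against 1491 in Control DMBA 2, 1288 in DMBA 1 and 1303 in DMBA 2. It also held 114 counts of 4 Y-linked genes (Ddx3y, Kdm5d, Uty and Eif2s3y), against 13 in Control DMBA 2 and 0 in the other 6 libraries. Xist, which is transcribed from the inactive X chromosome of females, lay at 2153 to 2377 CPM in the 4 libraries. In whole epidermis, fewer cells of a type and less RNA per cell cannot be told apart.

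At day 10 the largest group of raised genes was interferon-stimulated. The quasi-likelihood test of edgeR called 52 of the genes tested (0.267%) at a Benjamini-Hochberg adjusted p under 0.05, and 1835 (9.43%) had an unadjusted p under 0.05. Of these, 37 (0.19%) were higher after DMBA and 15 (0.0771%) were lower. Among the higher genes, 22 of 37 were on lists of interferon effectors, GTPases or signalling genes. These lists held 51, 22 and 25 of the 19450 genes tested, and they were chosen with earlier results of these data known. The other 15 included the gut hormone gene Pyy, the neuronal adhesion gene Igsf9b and the oxygen sensor gene Egln3. The lower genes included xenobiotic and lipid enzymes, receptors and 4 genes of the extracellular matrix. DMBA libraries lay above all 4 acetone libraries of the series in 37 of 37 higher genes, and below all 4 in 12 of 15 lower genes. The 3 exceptions were Mfap4, Col3a1 and Col1a2. The called genes were chosen by their difference from Control DMBA, which favours such a separation. No share over all genes tested is given for it, so these counts are a description only.

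The number of calls rested on every library. Leaving out Control DMBA 1 gave 26 calls and Control DMBA 2 gave 24. Only 4 and 6 were left when DMBA 1 or DMBA 2 was dropped. In the other set, dropping Control DMBA TPA 1 or 2 gave 28 or 25, and dropping DMBA/TPA 1 or 2 gave 176 or 168. DESeq2 called 428 genes (2.2%), among them 52 of the 52. Igsf9b was called in 18 of 18 alternatives, and Igfl3, Pyy and Egln3 each in 17. With Control DMBA 1 left out, 13 genes were called in each direction, and 4 of the 22 interferon genes remained called, namely Igtp, Gbp2, Oasl2 and Iigp1. Without DMBA 1, or without DMBA 2, 0 of the 22 did. Fewer of the 22 remained called without Control DMBA 2 than without Control DMBA 1. With the sample number as a replicate block, 0 of the 22 were called. The direction of all 22 was kept in each of the 18 alternatives.

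**Figure D1:**
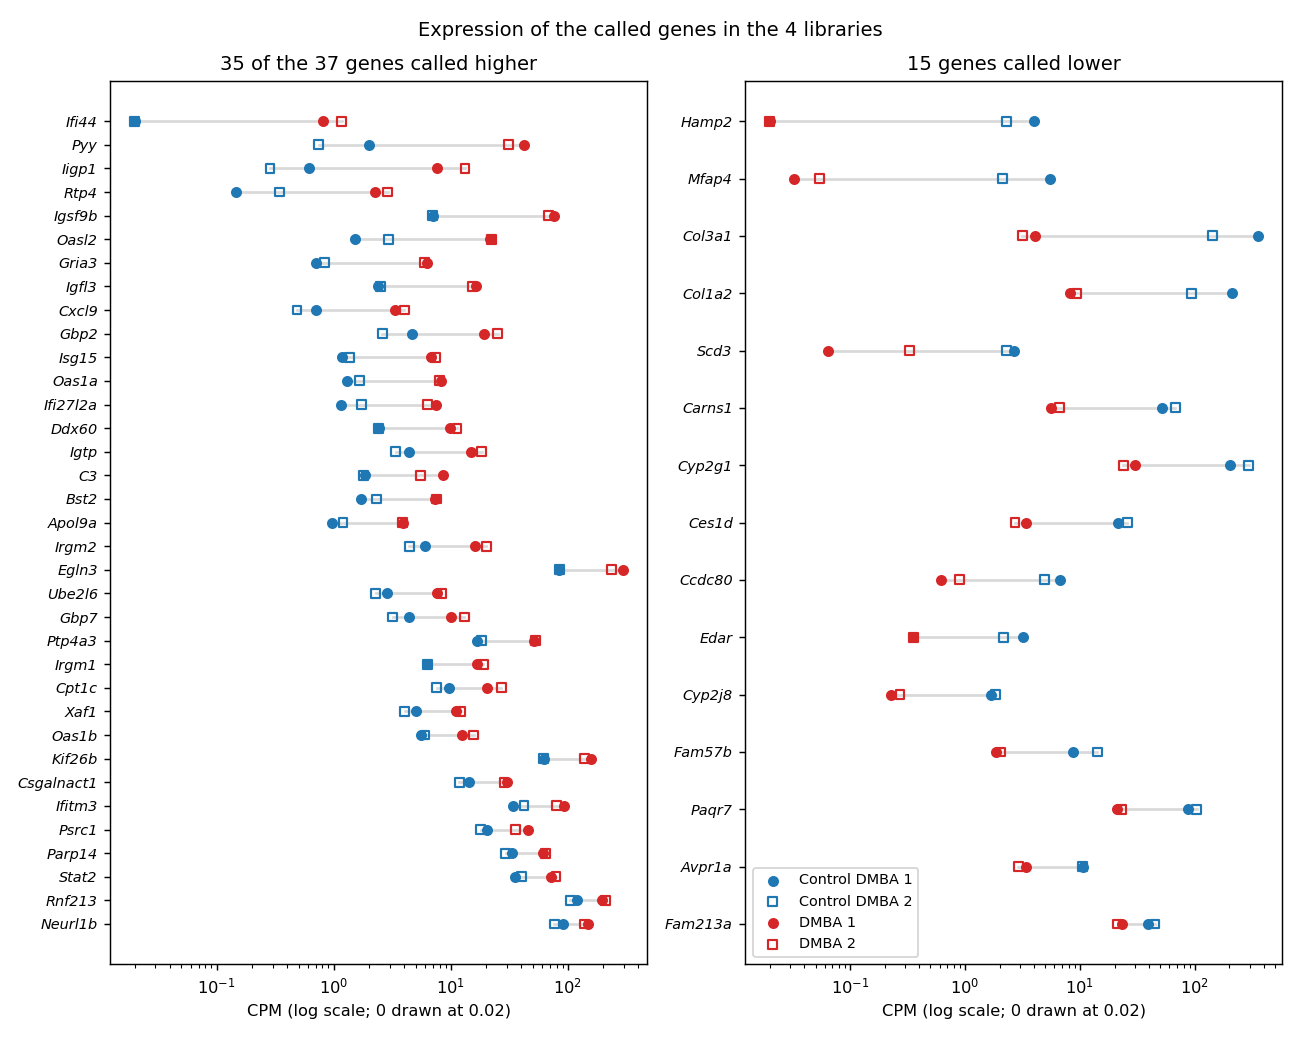
CPM of 35 of the 37 genes called higher (left) and of the 15 called lower (right) after DMBA, on a log axis, with 1 marker per library and 0 drawn at 0.02. Red DMBA markers and blue acetone markers do not overlap in any row, and the gap is widest for Ifi44, Pyy and Iigp1 on the left and for Hamp2, Mfap4 and Col3a1 on the right.

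**Figure D2:**
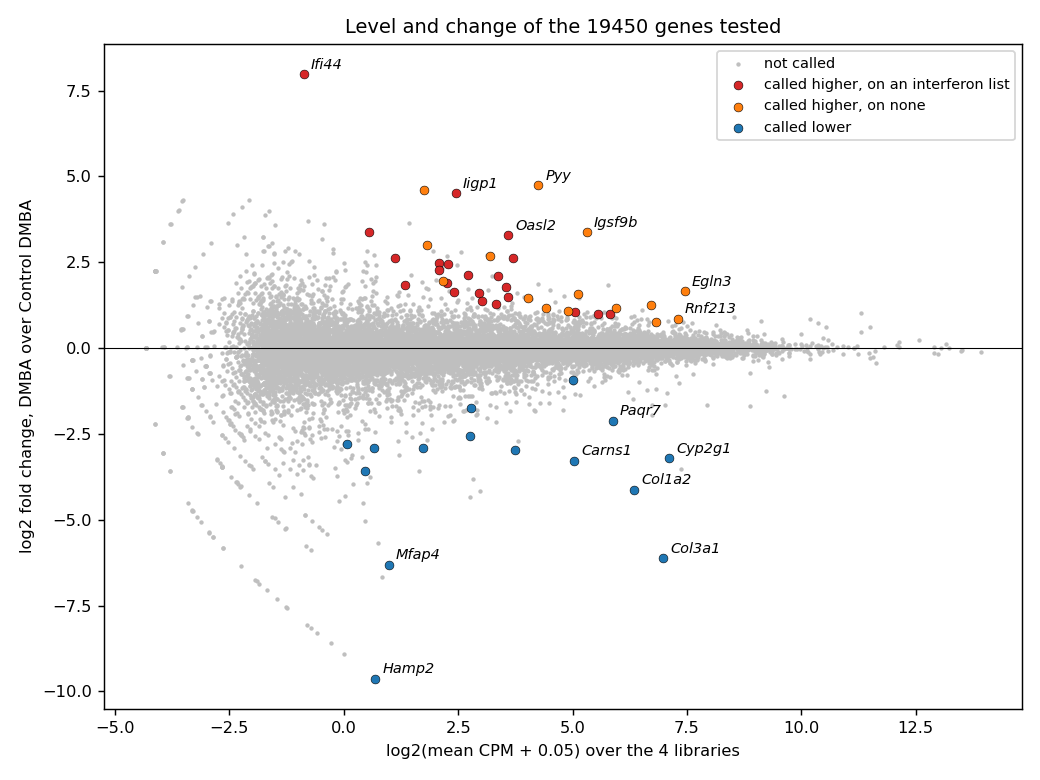
Fold change of DMBA over Control DMBA (log2) against the mean level of 19450 genes over the 4 libraries, as log2(CPM + 0.05). Called genes are coloured and lie on both sides of 0, with the steepest called fall at Hamp2 and the steepest called rise at Ifi44, which each had 0 counts in 1 of the groups. CPM are not corrected for gene length.

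Of the 37 higher genes, 26 had a RefSeq promoter in the reference (GRCm38.p6, 250 bases before the start). The core of the interferon-stimulated response element (GAAA, any 2 bases, GAAA, on either strand) was found in 11 of these 26 (42.3%), against 385 of all 12210 tested genes with a promoter (3.15%). All 11 were on the interferon lists, where 16 genes had a promoter (68.8%); it was found in 0 of the 10 other higher genes with a promoter and in 0 of 8 lower ones. The gamma-activated site, TTCNNNGAA, was found in 6 of 26 (23.1%), against 886 of 12210 (7.26%). Such a match describes letters in a window and is not a measured binding site. The following windows show the match in capitals for 7 of the 11 genes, each 5′ to 3′ on the strand of its gene, because these are the letters shared by antiviral, GTPase and signalling genes that rose.
Isg15, chr4:156200855-156200916, minus strand: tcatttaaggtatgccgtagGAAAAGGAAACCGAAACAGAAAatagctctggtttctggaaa
Oas1a, chr5:120907526-120907565, minus strand: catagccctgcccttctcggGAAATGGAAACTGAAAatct
Bst2, chr8:71537567-71537622, minus strand: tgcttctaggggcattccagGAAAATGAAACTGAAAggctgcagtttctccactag
Ddx60, chr8:61928014-61928086, plus strand: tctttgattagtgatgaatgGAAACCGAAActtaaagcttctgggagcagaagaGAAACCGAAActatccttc
Gbp7, chr3:142530263-142530312, plus strand: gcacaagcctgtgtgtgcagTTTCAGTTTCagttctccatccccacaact
Igtp, chr11:58199502-58199551, plus strand: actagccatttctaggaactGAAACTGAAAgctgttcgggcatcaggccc
Stat2, chr10:128270256-128270305, plus strand: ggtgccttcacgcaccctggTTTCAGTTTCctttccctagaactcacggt
Isg15 held 3 overlapping matches, the first beginning 78 bases before the RefSeq start, and Oas1a held 2, the first 20 bases before it. In Ddx60 the 2 matches were separate and began 53 and 19 bases before the start. Gbp7 and Stat2 carried the element on the strand opposite to the gene, and in Stat2 it lay 222 bases upstream. In Bst2 the match overlapped a gamma-activated site.

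Antiviral effectors formed the larger interferon group. Of 51 tested genes on that list, 13 were called higher and 0 lower (0.19% and 0.0771% of all genes tested). Their median log2 fold change was 0.85, against -0.01 over all genes. Both DMBA libraries lay above both acetone libraries in 42 of the 51, where 19.1% of all genes tested did so. Oasl2, a relative of the oligoadenylate synthetases, stood at 1.52 and 2.91 CPM in Control DMBA 1 and 2 and at 21.5 and 22.2 CPM in DMBA 1 and 2. Its log2 fold change was 3.30 ± 0.31 (SE). Oas1a, an oligoadenylate synthetase whose product activates RNase L, went from 1.29 and 1.65 CPM to 8.31 and 7.94 CPM, a log2 fold change of 2.46 ± 0.32 (adjusted p = 0.0326). Neither gene had overlapping groups. Isg15, a ubiquitin-like protein that is joined to other proteins, had 1.17 and 1.37 CPM in acetone and 6.79 and 7.37 CPM after DMBA (2.47 ± 0.29, adjusted p = 0.0205). Its conjugating enzyme gene Ube2l6 rose alongside, from 2.84 and 2.28 CPM to 7.56 and 8.26 CPM. Rtp4, an interferon-induced chaperone of receptors, was read at 0.147 and 0.342 CPM in acetone and at 2.26 and 2.88 CPM after DMBA (3.37 ± 0.46, adjusted p = 0.0359). Ifi44, an interferon-induced gene, had 0 counts in the acetone libraries and 68 over the 2 DMBA libraries, so that it was at least 23.2-fold higher when the acetone group is set at 3 counts.

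The other called members of the antiviral list had log2 fold changes between 1.00 and 2.26. The helicase gene Ddx60 had 2.43 and 2.42 CPM in acetone and 9.82 and 11.3 CPM after DMBA, and the tetherin gene Bst2, which holds virus particles at the cell surface, had 1.70 and 2.31 CPM and then 7.34 and 7.53 CPM. Ifi27l2a had log2 fold changes of 2.26 ± 0.32, the apolipoprotein L gene Apol9a 1.83 ± 0.27, Xaf1 1.36 ± 0.19, Oas1b 1.28 ± 0.19 and the ADP-ribosyltransferase gene Parp14 1.00 ± 0.13. Rnf213, a very large ubiquitin ligase, and Ifitm3, a membrane protein that blocks virus entry, were not on the lists although both are known to be interferon-induced, and they rose by 0.86 ± 0.10 and 1.17 ± 0.13. Several known members did not pass: Mx1, a dynamin-like antiviral GTPase, had 0.645 and 1.91 CPM in acetone and 8.82 and 7.50 CPM after DMBA (adjusted p = 0.0570), and Ifit1, which binds viral RNA, had 0.147 and 0.656 CPM and then 2.23 and 3.04 CPM (adjusted p = 0.153). Their acetone and DMBA values did not overlap.

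GTPases and other genes typical of interferon gamma had the highest median of all 39 lists, 1.70 on the log2 scale over 22 tested genes. Of the 22, 7 were called higher (0.19% of all genes tested) and 0 lower, and 20 had DMBA libraries above both acetone libraries (19.1% of all). Iigp1, an IRG that attacks the vacuoles of intracellular parasites, had 0.616 and 0.285 CPM in acetone and 7.56 and 13.2 CPM after DMBA. Gbp2 (chromosome 3, 142620602 to 142638008, mm10) had 4.66 and 2.60 CPM and then 19.2 and 25.1 CPM, and its neighbour Gbp7, another guanylate-binding protein, 4.40 and 3.19 CPM and then 10.1 and 13.0 CPM. Irgm1, which regulates the other IRGs, went from 6.24 and 6.30 CPM to 16.7 and 18.8 CPM (1.50 ± 0.17, adjusted p = 0.0205). Acetone and DMBA values of these 4 genes were far apart. Igtp and Irgm2 also rose, but they lie over each other on the same strand and their reads may be split between them. Cxcl9, a chemokine that draws T cells through CXCR3 and is a hallmark of interferon gamma, rose from 0.704 and 0.485 CPM to 3.36 and 4.00 CPM (2.62 ± 0.29, adjusted p = 0.0187). Its relatives Cxcl10 and Cxcl11 had log2 fold changes of 1.97 ± 0.51 and 2.53 ± 0.63 that did not pass the test (adjusted p = 0.196 and 0.182). The promoter share of the response element was largest on this list, with 11 of 15 genes (73.3%).

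Among receptors and signalling genes, 2 of 25 tested were called higher and 0 lower (0.19% and 0.0771% of all genes tested). Stat2, a transcription factor of the type I interferon response, had 35.4 and 40.0 CPM in acetone and 71.5 and 79.0 CPM after DMBA (1.00 ± 0.12, adjusted p = 0.0220). The libraries of a group lay close together. Irf9, its DNA-binding partner, had 36.2 and 46.3 CPM in acetone and 72.8 and 78.3 CPM after DMBA, with an adjusted p of 0.0672. Irf7, which amplifies type I interferon, had 3.55 and 4.76 CPM and then 12.9 and 14.2 CPM (adjusted p = 0.0545), and Irf1, a main mediator of interferon gamma, had a log2 fold change of 0.94 ± 0.17 (adjusted p = 0.0929). The gamma receptor gene Ifngr1 stood at 79.9 and 86.6 CPM and then 75.7 and 77.9 CPM. The list's median was 0.14.

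None of the interferon genes themselves had enough counts to be tested. Of the 15 listed ligands, 3 were tested, all of them interleukins. Of these, edgeR, DESeq2 and limma voom called 0, and 1 had an unadjusted p under 0.05. Ifnb1, Ifna1, Ifna4, Ifne, Ifnl2, Ifnl3 and Il12a had 0 counts in all 4 libraries, which allows up to 0.0443 CPM over the 2 DMBA libraries. Ifng, the gene of interferon gamma, was read at 0.0586 and 0.0285 CPM in acetone and at 0.129 and 0.0544 CPM after DMBA, too few counts for a comparison. Such limits cover counting error only.

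In the MHC class I pathway, edgeR's test called 0 of 20 tested genes, although all 20 had positive log2 fold changes and 19 had DMBA libraries above both acetone libraries (19.1% of all genes). The median was 0.34. An unadjusted p under 0.05 was found for 15 of the 20. DESeq2 called 6 of them higher, namely Tap2, Psmb9, Psmb8, Tapbp, Psmb10 and Tap1, and limma voom called 0. Tap2, a subunit of the peptide transporter, had 128 and 133 CPM in acetone and 195 and 190 CPM after DMBA (adjusted p = 0.0781). The immunoproteasome genes Psmb9 and Psmb8 had log2 fold changes of 0.74 ± 0.14 and 0.62 ± 0.12 (adjusted p = 0.102 and 0.110). The values were smaller for the presenting molecules themselves: H2-K1 had 0.31 ± 0.11, H2-D1 0.25 ± 0.12 and B2m, their light chain, 0.32 ± 0.20. Nlrc5, the transactivator of the class I genes, had 335 and 384 CPM and then 427 and 463 CPM (adjusted p = 0.520).

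**Figure D3:**
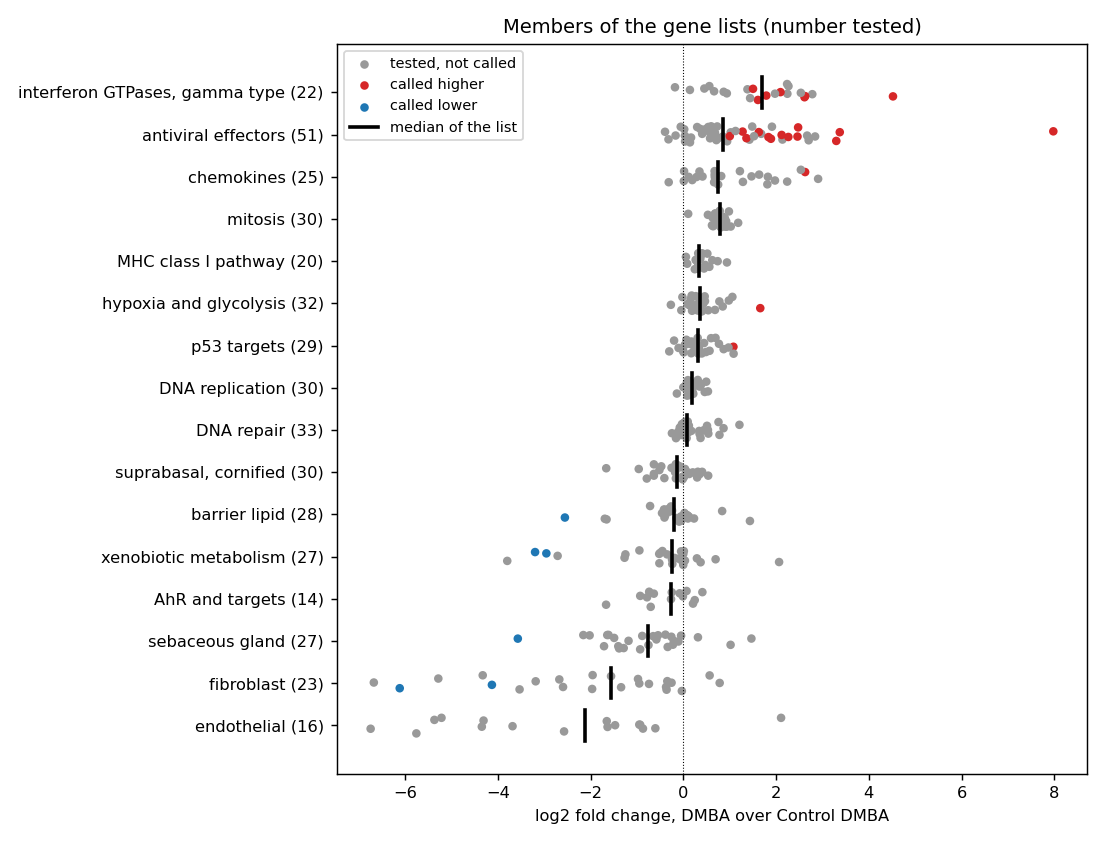
Fold change (log2, DMBA over Control DMBA) of every tested member of 16 gene lists, with list medians as black bars and called genes in colour. Over these 16 lists, medians range from 1.70 for the interferon GTPases to -2.11 for endothelial genes, and called genes are concentrated in the interferon rows.

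Genes outside the interferon lists also rose. Pyy, the gene of the gut hormone peptide YY (ENSMUSG00000017311, mm10 chromosome 11, 102106676 to 102107832), had 1.99 and 0.741 CPM in acetone and 42.2 and 31.1 CPM after DMBA, a log2 fold change of 4.74 ± 0.40 (adjusted p = 0.00914). Igsf9b, an adhesion molecule of inhibitory synapses (chromosome 9, 27299204 to 27357546), had 6.98 and 6.96 CPM and then 75.6 and 68.7 CPM (3.37 ± 0.26, adjusted p = 0.00800). The highest acetone library stayed below the lowest DMBA library by a wide margin in both. Gria3, a subunit of AMPA glutamate receptors, rose from 0.704 and 0.827 CPM to 6.30 and 5.98 CPM (3.00 ± 0.44, adjusted p = 0.0467). Igfl3 (chromosome 7, 18176494 to 18181862), an insulin growth factor-like gene, stood at 2.37 and 2.51 CPM and then 16.4 and 15.2 CPM. Its adjusted p of 0.00527 was the lowest of the 52.

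Egln3, a prolyl hydroxylase that marks hypoxia-inducible factors for breakdown and is itself hypoxia-induced, had 84.0 and 84.3 CPM in acetone and 296 and 236 CPM after DMBA (1.66 ± 0.14, adjusted p = 0.00914). C3, the central complement component, rose from 1.85 and 1.80 CPM to 8.60 and 5.55 CPM (1.95 ± 0.28, adjusted p = 0.0459). Kif26b, an unconventional kinesin, had 62.9 and 62.0 CPM and then 156 and 139 CPM. Ptp4a3, the phosphatase PRL-3, had 16.6 and 18.2 CPM and then 51.2 and 53.1 CPM (1.58 ± 0.18, adjusted p = 0.0205). Further called genes were Cpt1c, a brain form of carnitine palmitoyltransferase, at 1.46 ± 0.19, and Csgalnact1, which starts chondroitin sulfate chains, at 1.18 ± 0.13. Psrc1, a spindle protein, had 1.08 ± 0.15, and Neurl1b, a ubiquitin ligase of Notch ligands, 0.77 ± 0.11.

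Egln3 was the 1 called member among 32 hypoxia and glycolysis genes (0.267% of all genes tested were called). The median log2 fold change of the list was 0.35. In 25 of the 32, DMBA libraries lay above both acetone libraries, as in 19.1% of all genes. Vegfa, the vascular growth factor, had 28.0 and 38.5 CPM in acetone and 76.2 and 62.3 CPM after DMBA (adjusted p = 0.0929). Slc16a3, the lactate exporter, had 13.5 and 18.2 CPM and then 32.7 and 30.0 CPM, and the glycolytic gene Pgk1 90.1 and 110 CPM and then 189 and 154 CPM. These 3 groups did not overlap, and none passed the test. The core of the hypoxia response element, ACGTG, was found in 19 of 30 promoters of the list (63.3%), against 23.4% of all. Without Control DMBA 1 the list's median was 0.21, and against the other acetone group it was 0.78.

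Mitotic genes all had positive fold changes, and edgeR's test called 0 of the 30 tested. In 29 DMBA libraries lay above both acetone libraries (19.1% of all genes), and the median was 0.79. An unadjusted p under 0.05 was found for 27, DESeq2 called 12 higher and limma voom 0. Top2a, which untangles chromosomes, had 70.1 and 71.3 CPM in acetone and 133 and 121 CPM after DMBA (0.85 ± 0.20, adjusted p = 0.155). Cdk1, the mitotic kinase, had 10.4 and 9.47 CPM and then 18.6 and 16.1 CPM (adjusted p = 0.134). By DESeq2 the adjusted p of these 2 genes was 0.00384 and 0.00897. DNA replication genes had a median of 0.18, with 19 of 30 above both acetone libraries. EdgeR, DESeq2 and limma voom called 0 of them, and 4 had an unadjusted p under 0.05.

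Among 29 p53 targets, 21 had DMBA libraries above both acetone libraries and 1 below, against 19.1% and 20.2% of all genes, and the median was 0.32. EdgeR's test called 1 of them higher (0.19% of all genes tested), Psrc1, which also belongs to the spindle, and DESeq2 called 3. Cdkn1a, the cell cycle inhibitor p21, had 234 and 276 CPM in acetone and 284 and 289 CPM after DMBA, a log2 fold change of 0.17 ± 0.11 (adjusted p = 0.794). Polk, a DNA polymerase that bypasses bulky adducts, had 24.5 and 21.6 CPM and then 31.3 and 31.5 CPM (adjusted p = 0.187). The 33 DNA repair genes had a median of 0.07. EdgeR's test called 0 of them, limma voom 0 and DESeq2 3 higher, and 10 had an unadjusted p under 0.05.

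The aryl hydrocarbon receptor, to which DMBA binds, and its targets gave no call by edgeR's test on day 10. Of 14 tested genes 6 had both DMBA libraries below both acetone libraries and 3 above, against 20.2% and 19.1% of all genes, and the median was -0.26. Cyp1a1, the classical target, had 10.2 and 17.3 CPM in acetone and 4.78 and 3.89 CPM after DMBA (-1.67 ± 0.40, adjusted p = 0.171 by edgeR). DESeq2 called it lower (adjusted p = 0.00100) and no other gene of the list, limma voom called 0, and 2 genes had an unadjusted p under 0.05. The P450 gene Cyp1b1, which activates DMBA in mice, had 120 and 81.4 CPM and then 82.3 and 84.8 CPM (adjusted p = 0.954). DMBA and acetone values overlapped for Cyp1b1. The receptor gene Ahr itself had 199 and 166 CPM and then 209 and 212 CPM.

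Enzymes of xenobiotic and lipid metabolism were among the lower genes. Cyp2g1, a P450 first known from olfactory tissue (ENSMUSG00000049685, chromosome 7, 26808892 to 26821205), fell from 203 and 294 CPM in acetone to 30.3 and 23.9 CPM after DMBA (-3.20 ± 0.37, adjusted p = 0.0205). Ces1d, a carboxylesterase, fell from 21.5 and 25.8 CPM to 3.39 and 2.72 CPM (-2.96 ± 0.31, adjusted p = 0.0168), and Cyp2j8 from 1.67 and 1.85 CPM to 0.226 and 0.272 CPM (-2.80 ± 0.39, adjusted p = 0.0374). None of these groups overlapped. Over the 27 xenobiotic genes tested, edgeR called 2 lower and 0 higher (0.0771% and 0.19% of all genes tested), and the median was -0.24. In 12 of the 27 DMBA libraries lay below both acetone libraries and in 3 above, against 20.2% and 19.1% of all genes. DESeq2 called 7 lower and 1 higher, and limma voom called 2 lower. Cyp2f2 had 8.38 and 18.0 CPM and then 0.905 and 0.979 CPM without passing (adjusted p = 0.0597). Carns1, which makes the dipeptide carnosine (chromosome 19, 4164324 to 4175479), fell from 51.8 and 67.5 CPM to 5.59 and 6.63 CPM.

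Scd3, a fatty acid desaturase of sebaceous glands, fell from 2.67 and 2.28 CPM to 0.0646 and 0.326 CPM (-3.57 ± 0.44, adjusted p = 0.0227). It was the called gene among 27 sebaceous gland genes (0.0771% of all genes tested were called lower). Of the 27, 18 had DMBA libraries below both acetone libraries and 3 above (20.2% and 19.1% of all genes), with a median of -0.75. DESeq2 called 9 lower and 2 higher, limma voom called 0, and 17 had an unadjusted p under 0.05. The whole list summed to 4711 and 5967 CPM in acetone and 6501 and 4840 CPM after DMBA. Mc5r, the melanocortin receptor of sebocytes, had 13.5 and 18.9 CPM and then 3.81 and 3.45 CPM (adjusted p = 0.0929). In contrast, Krt79, a keratin of the sebaceous duct, had 1826 and 1501 CPM and then 4043 and 2690 CPM (adjusted p = 0.171). The list's median was -0.31 without Control DMBA 2 and -1.06 without Control DMBA 1. Fam57b, a ceramide synthase relative, was called among 28 barrier lipid genes and fell from 8.74 and 14.1 CPM to 1.84 and 2.04 CPM (-2.56 ± 0.31, adjusted p = 0.0227). It overlaps the abundant gene Aldoa on the other strand, and the strand setting of the counting is not given, so its reads are uncertain.

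Receptors were also among the lower genes. Edar, the ectodysplasin receptor of hair and gland placodes, had 3.22 and 2.17 CPM in acetone and 0.355 and 0.353 CPM after DMBA (-2.91 ± 0.43, adjusted p = 0.0467). Paqr7, a membrane progestin receptor, fell from 87.2 and 104 CPM to 20.9 and 23.2 CPM, and Avpr1a, a vasopressin receptor, from 10.6 and 10.6 CPM to 3.43 and 2.91 CPM. Hamp2, a hepcidin gene of the mouse, had 215 counts over the acetone libraries (3.96 and 2.28 CPM) and 0 after DMBA, at least 70.2-fold lower when the DMBA group is set at 3 counts. Fam213a, a peroxiredoxin-like gene, had the smallest called decrease, -0.92 ± 0.12. In the other acetone group Hamp2 stood at 18.1 and 20.3 CPM and Scd3 at 31.0 and 35.3 CPM, so the level of both in acetone skin differed between the groups (adjusted p = 0.0111 and 0.00265).

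Genes of connective tissue were lower after DMBA than in Control DMBA, and their level differed among the acetone libraries. Col3a1, a fibrillar collagen, had 355 and 143 CPM in Control DMBA 1 and 2 and 4.04 and 3.15 CPM in DMBA 1 and 2. The other acetone group had 0.628 and 1.73 CPM, below the DMBA libraries. Against that group the log2 fold change of Col3a1 was 1.55 in place of -6.12. Col1a2, a chain of type I collagen, had 212 and 92.8 CPM and then 8.14 and 9.27 CPM (-4.13 ± 0.58), and the extracellular gene Ccdc80 had 6.68 and 4.88 CPM and then 0.614 and 0.897 CPM (-2.92 ± 0.39). Mfap4, a protein of microfibrils, had 262 counts in Control DMBA and 3 after DMBA, a ratio of 85.5 with an exact 95% counting interval of 28.9 to 417.3. In each of these genes Control DMBA 1, which held most of the Y-linked reads, was the higher of the Control DMBA libraries. A link between these observations was not tested.

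The lists of fibroblast, endothelial, mast cell and adipocyte genes had negative medians as well. Of 23 fibroblast genes 2 were called lower (0.0771% of all genes tested), and 16 had DMBA libraries below both Control DMBA libraries (20.2% of all genes). Their median was -1.56, but it was -0.83 without Control DMBA 1 and 0.87 against the other acetone group. The median of 16 endothelial genes was -2.11, or -1.75 with the 2 genes at 0 counts after DMBA set at 3 counts, and 0.72 against the other acetone group. EdgeR's test called 0 of them, limma voom 0 and DESeq2 5 lower and 1 higher, and 14 had an unadjusted p under 0.05. Of 8 mast cell genes tested, 7 had DMBA libraries below both Control DMBA libraries. Their summed level over the whole list was 16.9 and 6.93 CPM in Control DMBA and 7.56 and 6.03 CPM after DMBA. The fitted median of -5.89 rested on 5 genes with 0 counts after DMBA; with these set at 3 counts it was -4.14, and the fitted value was -0.16 against the other acetone group. For these 8 genes edgeR and limma voom made 0 calls and DESeq2 called 5 lower, and 5 had an unadjusted p under 0.05. Of 7 adipocyte genes, 6 lay below both Control DMBA libraries, with a median of -1.65. The whole adipocyte list summed to 32.8 CPM in Control DMBA 1 and 48.4 CPM in Control DMBA 2, so Control DMBA 2 was the higher library here. Col1a1 had 395 and 210 CPM in Control DMBA and 18.5 and 33.7 CPM after DMBA (adjusted p = 0.0769), and Fbn1, a microfibril protein, 20.4 and 5.16 CPM and then 0.582 and 0.680 CPM (adjusted p = 0.0709). The part of dermal RNA in these differences was not tested. Without Control DMBA 1, Col3a1 remained called with a log2 fold change of -5.31, and Col1a2, Mfap4 and Ccdc80 were not called.

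**Figure D4:**
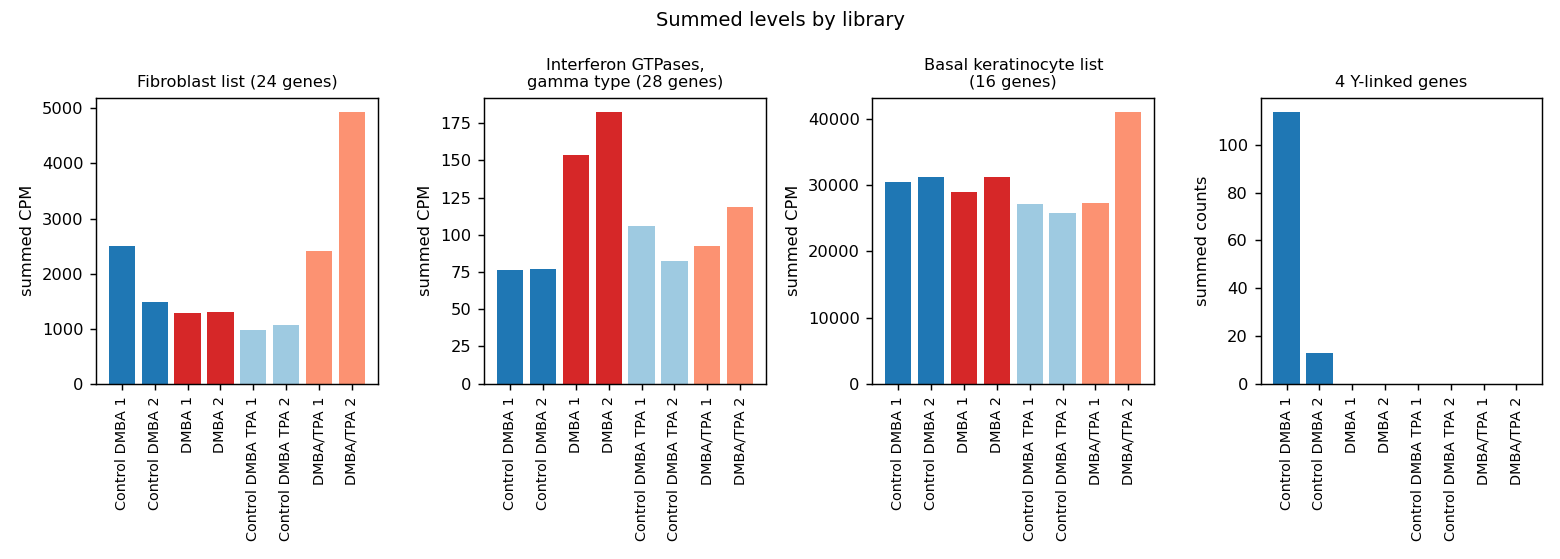
Summed CPM of the fibroblast, interferon GTPase and basal keratinocyte lists and summed counts of 4 Y-linked genes in the 8 libraries. Fibroblast genes and Y-linked reads are highest among the first 4 libraries in Control DMBA 1 (2497 CPM and 114 counts), whereas the interferon GTPases stand at 153 and 183 CPM in DMBA against 76.3 and 77.2 CPM in Control DMBA.

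Among markers of conventional T and NK cells, edgeR's test and limma voom called 0 of 20 tested genes. DESeq2 called 2 higher, Cd8a and Cd6, and 10 had an unadjusted p under 0.05. In 9 of the 20 DMBA libraries lay above both acetone libraries and in 6 below, against 19.1% and 20.2% of all genes, with a median of 0.21. Cd8a, the coreceptor of cytotoxic T cells, had 0.176 and 0.0855 CPM in acetone and 1.32 and 1.09 CPM after DMBA (adjusted p = 0.0866), and Cd6, an adhesion receptor of T cells, 0.381 and 0.599 CPM and then 3.65 and 1.69 CPM (adjusted p = 0.0900). Cd4 had 0.323 and 0.542 CPM and then 1.94 and 1.14 CPM. The shared T cell gene Cd3e, in contrast, had 23.3 and 33.2 CPM and then 18.3 and 18.9 CPM (-0.60 ± 0.17, adjusted p = 0.225). Receptor genes of the resident dendritic epidermal T cells, the gamma delta T cells of mouse epidermis, also had lower values, without passing edgeR's test. Trdv4 had 3.22 and 2.88 CPM and then 1.91 and 1.60 CPM (adjusted p = 0.241). Tcrg-V5 had 1.35 and 1.94 CPM and then 0.711 and 0.761 CPM (adjusted p = 0.277). For the 17 tested markers of these cells, edgeR, DESeq2 and limma voom made 0 calls. In 9 of the 17 DMBA libraries lay below both acetone libraries and in 2 above, with a median of -0.26. The whole list summed to 624 and 676 CPM in acetone and 617 and 641 CPM after DMBA. Chemokines had a median of 0.75 over 25 genes, or 0.68 with 1 gene at 0 counts in acetone set at 3 counts. The median was 0.55 without DMBA 1, 1.06 without Control DMBA 2 and 2.30 against the other acetone group. In 19 of the 25 DMBA libraries lay above both acetone libraries (19.1% of all genes). EdgeR's test called 1 of them higher, Cxcl9 (0.19% of all genes), and DESeq2 called 4 higher (2.2% of all genes were called in either direction). Ccl22, a ligand of CCR4, had 2.64 and 4.65 CPM and then 12.1 and 8.13 CPM (adjusted p = 0.169 by edgeR and 0.00514 by DESeq2).

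The response to DMBA alone was then set against that to DMBA followed by TPA, each relative to its own acetone group, so that the responses share no library. In that second comparison 40.7% of all genes were called. Of the 37 genes higher after DMBA, 17 were also called higher after DMBA/TPA and 0 lower. Interferon genes made up 8 of these 17, out of 22, and the other genes 9 of 15. The difference between the responses was itself called for 27 of the 52 genes and for 12.6% of all genes. The 52 were chosen by the DMBA response that is subtracted here, which favours a call and its direction, so these counts are a description and are not read against that share. For interferon genes it was called in 13 of 22, with the smaller value after DMBA/TPA in all 13. Iigp1 rose by 4.52 ± 0.49 after DMBA and had 0.31 after DMBA/TPA, a difference of -4.21 ± 0.66 (adjusted p = 0.00877), with acetone levels of 0.616 and 0.285 CPM in the first set and 2.16 and 1.15 CPM in the second. Ddx60 had 2.12 ± 0.22 and then -0.09, a difference of -2.20 ± 0.30 (adjusted p = 0.00624). The acetone levels of Ddx60 themselves differed between the sets, at 2.43 and 2.42 CPM against 5.93 and 5.17 CPM (adjusted p = 0.0221). The difference was not called for Isg15, which rose after both treatments (2.47 and 1.33), nor for Rtp4 (3.37 and 3.58) or Cxcl9 (2.62 and 1.92).

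Among the other raised genes, Pyy stood apart with a difference of -5.47 ± 0.56 (adjusted p = 0.00303): its level after DMBA/TPA was 1.34 and 1.57 CPM, and the acetone libraries of that set had 2.69 and 2.14 CPM. Igsf9b remained raised at 2.00 on the log2 scale after DMBA/TPA, and Egln3 rose by 1.65, with a difference of -0.01 ± 0.19. Igfl3 had a larger log2 fold change after DMBA/TPA (6.92) but a lower level, at 7.51 and 8.34 CPM against 16.4 and 15.2 CPM after DMBA. Its acetone levels differed between the groups, at 2.37 and 2.51 CPM against 0.0697 and 0.0550 CPM. Of the 15 lower genes, 9 were also lower after DMBA/TPA, including Scd3, Cyp2g1, Carns1 and Paqr7, and 4 were higher, the matrix genes Mfap4, Col3a1, Col1a2 and Ccdc80. The acetone levels of these 4 also differed between the groups (adjusted p = 0.0125, 0.00319, 0.0111 and 0.0240 by edgeR), with Control DMBA the higher. The MHC class I list, with a median of 0.34 after DMBA, had -0.29 after DMBA/TPA, and the difference was called for 11 of its 20 genes (12.6% of all genes tested). Mitotic genes had 0.79 and 1.73, with the difference called for 6 of 30 (12.6% of all). Their median log2 fold change of Control DMBA over the other acetone group was 0.52, so their acetone levels were not alike. The 2 acetone groups themselves differed for 10 of the 52 genes and for 6.25% of all genes. Control DMBA was used to choose the 52 and enters this comparison too, so the count is a description and is not read against that share.

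**Figure D5:**
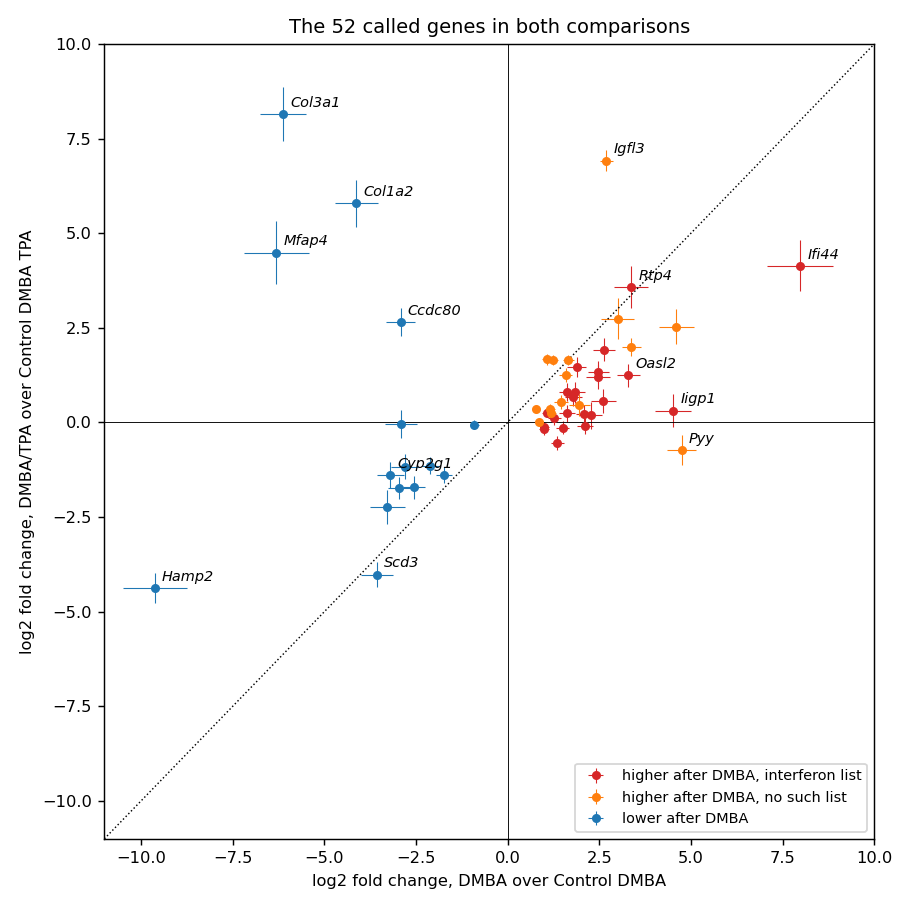
Log2 fold changes (± SE) of the 52 called genes after DMBA alone (x axis) and after DMBA/TPA (y axis), each over its own acetone group, with the line of equal response dotted. Most interferon genes (red) lie below the line, Rtp4 lies on it, and the 4 matrix genes at the upper left have opposite signs.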

How the data were processed

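Per the labels, rRNA-depleted total RNA of mouse back skin epidermis (RIN above 7) was made into directional libraries. The authors deposited raw counts per Ensembl gene, 1 table per library. The submitters' processing notes name mm10 as the build and list TopHat2, Bowtie2, cutadapt and FastQC. Their versions, the counter, its annotation and whether it used strand are not stated in these sources. The 5 summary rows of each table were dropped. Genes held 40.9% to 42.0% of the rows' total in the 4 libraries compared. Of 55487 identifiers, 55227 (99.5%) matched GENCODE M21 on GRCm38, the build of mm10, which gave symbols and coordinates. Replicates differed beyond sampling noise, with a chi-square per degree of freedom of 35.1 in Control DMBA and 14.7 in DMBA.

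Low genes were removed with filterByExpr (count 10, total 15). With TMM scaling, 1 model with a mean per group was fitted to all 8 libraries, and contrasts were tested by quasi-likelihood in edgeR 4.0.16 (R 4.3.3). Calls were made at Benjamini-Hochberg adjusted p under 0.05 over all genes tested, and SE is derived from the fold change and its F statistic. The biological coefficient of variation was 0.165. CPM use TMM-scaled library sizes and are not corrected for gene length, so levels are compared between libraries and not between genes. On data simulated for the DMBA comparison over 19450 genes, the test found 73 of 100 genes with a 2-fold change, 97 of 100 with a 4-fold change and 4 of 19250 without any. The simulation gave genes of equal level the same spread and changed only genes with a mean above 1 CPM. It therefore does not give the power or the rate of false calls in the real data.

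Members of the comparison and the 39 gene lists were chosen with earlier results of these data known. Named were all called genes with a symbol that is no predicted gene, clone, pseudogene, small RNA or receptor segment, with values per library for at most 12 in each direction by the largest change at a mean of at least 1 CPM, at most 4 genes of each list by p, and a set of fixed genes; Ifi44 and further genes given per library were chosen once values were known. For genes at 0 counts in a group the fold is a bound over 3 counts for the group. Promoters are 250 bases from RefSeq (GRCm38.p6), searched on both strands. Genes that overlap others are uncertain. Some called or listed genes are not reported here, though they are included in the counts. Alternatives were DESeq2 1.42.0, no low-count filter, RLE or total-count scaling, limma voom (limma 3.58.1), a replicate block, a fit of 4 libraries, other acetone controls and leaving out each library.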

Additional observations from a re-analysis of the deposited data

Results flagged for a closer look

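For the following genes, among those reported here, the response to DMBA followed by TPA differed from the response to DMBA alone, each over its own acetone group, by edgeR's test of the difference itself at an adjusted p under 0.05. The values subtract the log2 response to DMBA alone from that to DMBA/TPA, and 12.6% of all genes tested were called in the same way. Genes called after DMBA were chosen by the response that is subtracted, which favours such a difference. Among interferon genes that rose after DMBA the difference was -4.21 for Iigp1, -2.20 for Ddx60, -2.08 for Ifi27l2a, -2.06 for Oasl2, -2.05 for Gbp2, -1.90 for Xaf1, -1.86 for Igtp and -1.64 for Irgm1. It was -1.37 for Gbp7, -1.18 for Parp14, -1.16 for Oas1b, -1.11 for Stat2, -0.85 for Rnf213 and -0.81 for Ifitm3. Of other genes that rose, Pyy had -5.47, C3 -1.50, Igsf9b -1.37 and Csgalnact1 -0.93, whereas Igfl3 had 4.23. Among genes that fell after DMBA, the matrix genes had 14.26 (Col3a1), 10.80 (Mfap4), 9.92 (Col1a2) and 5.58 (Ccdc80). In the same order, Control DMBA lay above the other acetone group by 7.67, 5.33, 4.06 and 1.91 on the log2 scale. These gaps between the acetone groups are part of the differences given. Edar had 2.86, Cyp2g1 1.81 and Fam213a 0.86.

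Genes that were not called after DMBA alone but were named for their lists also differed. In the interferon and MHC class I lists, Sp100, a nuclear body protein, had -1.56, B2m -1.24, Psmb9 -1.08, H2-Q7, a class Ib molecule, -1.02, Ifngr1 -0.92, Irf9 -0.84, Nlrc5 -0.81 and Tap1, a transporter subunit, -0.61. T cell receptor genes had -4.51 (Trdv4), -3.35 (Tcrg-C1) and -3.11 (Tcrg-V5), and Cd3e had -2.20. Connective tissue genes had 11.38 (Fbn1) and 10.08 (Col1a1), and Control DMBA lay above the other acetone group by 5.58 and 4.44 in them. Vegfa had 1.27, the glycolytic gene Tpi1 0.90, Polk -0.69 and Ahr -0.97.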

How the results depend on the processing

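The 52 calls (37 higher, 15 lower) kept their direction under 18 alternatives, except Col3a1, whose log2 fold change was 1.55 against the other acetone group. That control gave 3210 calls (1865 higher, 1345 lower), 48 of the 52 among them, and other signs for B2m (-0.21), Cyp1b1 (1.45), Fbn1 (1.25) and Col1a1 (0.90), which were not called in the comparison reported. Cyp1b1 also had 0.35 against all 4 acetone libraries. No low-count filter gave 661 calls (316 higher, 345 lower) and DESeq2 428 (224 and 204), both with 52 of the 52. RLE size factors gave 24 lower genes, a fit of the 4 libraries 25 and limma voom 8. Leaving out single libraries gave 4 to 176 calls, 3 to 102 higher and 1 to 74 lower, with 11 to 29 of the 52 differing in response after DMBA/TPA. For Cyp1b1 it gave -0.517 to 0.0396. The cause was not tested. Whether sample numbers pair the libraries cannot be settled here. The correlation of replicate deviations between Control DMBA and DMBA was -0.152 and rests on 2 libraries per group. With the number as a replicate block, 5 genes were called higher and 0 lower, namely Pyy, Igsf9b, Igfl3, Egln3 and Ptp4a3. With crossed pairing, added after seeing the data, 41 were called. Over alternatives, the values of called genes stayed on their side of the threshold in 600 cases and fell short of it in 335. List medians moved beyond the spread between replicates in 114 of their cases and stayed within it in 588. With 2 libraries per group, genes of few counts such as the interferon ligands could not be compared at this depth.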

Other observations

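Lists not described above also gave values. Stress keratins and other genes of thickened epidermis had a median log2 fold change of 0.38 over 31 tested genes, with 15 above and 2 below both acetone libraries (19.1% and 20.2% of all genes), against 7.90 after DMBA/TPA. EdgeR's test called 0 of them, limma voom 0 and DESeq2 2 higher, and 4 had an unadjusted p under 0.05. Basal keratinocyte genes had -0.12 over 16 genes, suprabasal and cornified genes -0.15 over 30 and barrier lipid genes -0.20 over 28. Without Control DMBA 2 the suprabasal and barrier lipid medians were 0.09 and 0.02, and against the other acetone group they were -0.36 and -0.64. Targets of NRF2, the regulator of antioxidant enzymes, had -0.04 over 25 genes; edgeR, DESeq2 and limma voom called 0, and 1 had an unadjusted p under 0.05. Langerhans cell and MHC class II genes had -0.12 over 17 genes, and their summed level was 1125 and 1190 CPM in acetone and 1201 and 1072 CPM after DMBA. Core circadian clock genes had -0.15 over 18 genes and glucocorticoid response genes -0.20 over 14.

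Hair shaft and inner root sheath genes varied within the acetone group, with summed levels of 886 and 2165 CPM in Control DMBA and 1046 and 788 CPM after DMBA. The median over 29 tested genes was -1.34. EdgeR, DESeq2 and limma voom called 0, and 0 had an unadjusted p under 0.05. Follicle stem cell genes summed to 6680 and 4200 CPM in acetone and 4027 and 5065 CPM after DMBA.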
